A study of Mus musculus with 8 samples.

Results

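The transcripts described here encode the 4 polo-like kinases on the array, Plk1, Plk2, Plk3 and Plk4, and 5 direct partners of Plk1: Bora, Fbxo5, Cdc25c, Wee1 and Pkmyt1. Every probe to which the platform annotation gives 1 of these 9 symbols was taken, 11 probes in all, out of 16593 named genes on the array. The set was chosen by the measured difference of the Plk1 signal between the groups, and its members by their annotation. Its own difference is therefore given as a description with no test. The question asked of the other 8 genes was whether any of them moved with Plk1.

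The samples were CD8+ T cells of C57BL/6 mice, 4 from ASC knockout mice and 4 from wild type mice. ASC, encoded by Pycard, is the adaptor protein best known for assembling inflammasomes, and the title of the study ties it to cytotoxic T cell differentiation. Each sample was hybridised to 1 single-colour Illumina MouseRef-8 v2.0 bead array. The labels call the samples replicates and name no separate animals, ages, stimulation or knockout allele. The spread behind every p-value is therefore that of these 8 samples and may be technical.

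Polo-like kinases bind phosphorylated partner proteins through their polo-box domain. Plk1 drives mitotic entry, centrosome maturation, spindle assembly and cytokinesis, and dividing cells accumulate its transcript late in the cell cycle. At mitotic entry, Aurora A activates Plk1 with the help of Bora, and Plk1 then promotes activation of cyclin B-Cdk1 through Cdc25c and against Wee1 and Pkmyt1. Plk2 and Plk3 are better known as genes induced by growth factors and stress, and Plk4 starts centriole duplication.

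The bases around the transcription start site differed between these genes in the elements they held. RefSeq windows of 300 bases (assembly GRCm38.p6), from 250 bases before to 50 bases after the start, were matched for 5 of the 9 genes: Plk1, Plk2, Plk3, Plk4 and Fbxo5. They were searched on both strands for TTTGAA, the core of the cell cycle genes homology region (CHR), for CCAAT, and for TGACGTCA, the full cAMP response element. TGACGTCA was added after the Plk2 window had been read, and shorter or variant forms of it were not searched. The motifs do not overlap each other in these windows. The CHR core occurs in 17.9% of the 32851 windows of the table, CCAAT in 37.4% and TGACGTCA in 1.79%. The windows of Plk1, Plk2 and Fbxo5 are shown 5′ to 3′ along the gene's own strand because they held at least 1 of these motifs, which stand in capitals. Lines give Plk1 (chr7:122159185-122159484, plus strand), Plk2 (chr13:110394794-110395093, plus strand) and Fbxo5 (chr10:5805416-5805715, minus strand).
Plk1: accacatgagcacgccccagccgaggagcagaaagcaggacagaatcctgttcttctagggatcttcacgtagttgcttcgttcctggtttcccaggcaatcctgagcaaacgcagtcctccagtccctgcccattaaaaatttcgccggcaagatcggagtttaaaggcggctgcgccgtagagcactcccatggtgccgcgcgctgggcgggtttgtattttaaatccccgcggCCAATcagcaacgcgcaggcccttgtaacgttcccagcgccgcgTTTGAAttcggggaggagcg
Plk2: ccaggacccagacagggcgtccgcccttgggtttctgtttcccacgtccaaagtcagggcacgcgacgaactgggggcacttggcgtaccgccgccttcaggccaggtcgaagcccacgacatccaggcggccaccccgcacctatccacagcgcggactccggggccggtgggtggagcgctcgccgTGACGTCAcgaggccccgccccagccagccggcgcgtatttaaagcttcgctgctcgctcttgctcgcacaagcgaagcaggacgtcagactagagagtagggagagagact
Fbxo5: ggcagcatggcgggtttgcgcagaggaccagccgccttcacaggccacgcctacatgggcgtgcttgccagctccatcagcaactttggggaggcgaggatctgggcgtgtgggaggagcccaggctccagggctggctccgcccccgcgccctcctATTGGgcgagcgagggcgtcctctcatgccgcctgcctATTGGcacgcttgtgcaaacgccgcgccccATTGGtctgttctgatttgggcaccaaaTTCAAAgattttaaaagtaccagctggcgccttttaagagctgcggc
In the Plk1 window the CCAAT match began 14 bases before the start and the CHR core 30 bases after it. The Fbxo5 window held 3 CCAAT matches, which began 93, 55 and 25 bases before the start, and the CHR core 3 bases after it, all on the opposite strand. The Plk2 window held neither, and its TGACGTCA began 62 bases before the start. The windows of Plk3 and Plk4 held none of the 3 motifs in these exact letters. A match describes the letters only.

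The array held the T cell transcripts that the label asks for, with 1 exception. Of 5 CD8 T cell markers, Cd8b1, Cd3d, Cd3e and Cd3g were detected on all 8 arrays, where detected means a detection p-value under 0.05, while the single Cd8a probe was detected on none. The mean log2 level of the 4 detected markers was 13.91 to 13.98 in ASC knockout and 13.92 to 14.03 in wild type samples. Between 44.9% and 45.4% of 25697 probes were detected on ASC knockout arrays, against 42.8% to 44.5% on wild type arrays, and the median signal of the 8 arrays ran from 127.9 to 133.8. Pycard, the targeted gene, had signals of 118.6, 123.9, 120.1 and 123.4 in ASC knockout samples, none of them detected, against 506.3, 489.9, 480.5 and 523.8 in wild type samples. The mean signal was 121.5 in ASC knockout and 500.1 in wild type samples. Set against the detection floor of the knockout arrays, the wild type level was at least 3.73-fold higher on the deposited signals. After background correction and normalization that bound was 12.7-fold, so its size depends on the correction.

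Plk1, the mitotic kinase, had 1 probe on the array, ILMN_1255053, and the gene lies on chromosome 7. All statements on the Plk1 transcript rest on this probe, and its difference could not be checked at another place in the transcript. Its signal, the deposited probe intensity before any correction, was 188.9, 183.3, 197 and 184.5 in the 4 ASC knockout samples, against 3488, 3438.1, 3284 and 2980.9 in the 4 wild type samples. The groups lay far apart, and within each group the samples stayed close together. The mean signal was 188.4 ± 6.2 in ASC knockout and 3298 ± 228 in wild type samples (SD, n = 4 each), 17.5-fold higher in wild type, or a change of -94.3% in the knockout. The probe was still detected on all 4 knockout arrays, as on all 4 wild type arrays. After background correction and quantile normalization the mean log2 level was 6.41 in ASC knockout and 11.56 in wild type samples. The fitted log2 difference was -5.15 ± 0.0881 (SE, here and for all differences below). It was the second largest absolute difference among the 11270 tested probes. Without background correction the difference was -4.03 on the log2 scale. Leaving out each sample in turn gave -5.19 to -5.10.

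**Figure D1:**
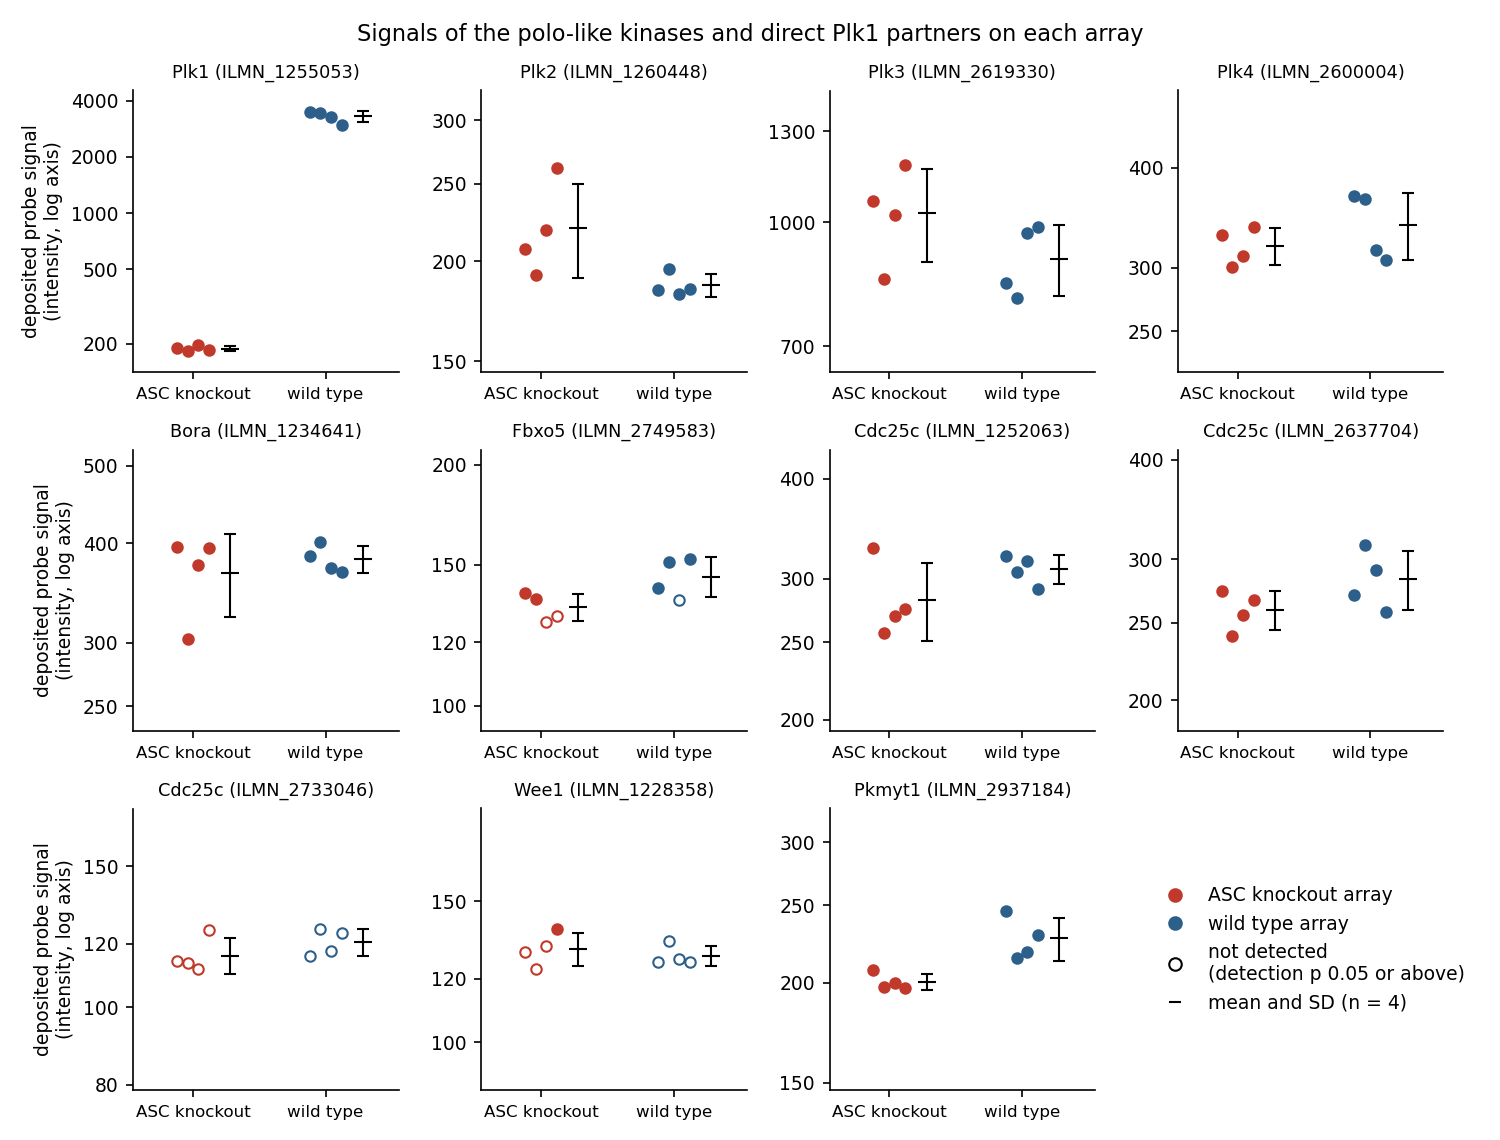
Deposited signal intensity on a log axis for each of the 11 probes of the polo-like kinases and their partners, with 4 ASC knockout samples left of 4 wild type samples. Bars give mean and SD, and open circles mark samples in which the probe was not detected. The 4 knockout signals of Plk1 lie at 183.3 to 197 and the 4 wild type signals at 2980.9 to 3488, while every other panel spans a far narrower range.

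No other member was called. Probes were tested where at least 4 of the 8 arrays detected them, which left 7 of the 8 other genes, and a gene was called at an adjusted p-value under 0.05 over all tested probes. Among these 7 genes, 0 were called higher and 0 lower by limma. Over all 7759 tested genes, 0.593% were called higher and 0.438% lower, 1.03% in all. An unadjusted p-value under 0.05 was met by 4 of the 7 genes. Plk2 and Plk3 were higher, as were 7.27% of all tested genes at that level, and Fbxo5 and Pkmyt1 were lower, as were 5.68% of all tested genes. Their log2 differences ran from -0.36 to 0.58 with a median of 0.008, against a median of 0.00022 over all tested genes. A fit that let the variance follow intensity and down-weighted extreme values called 1 of them, Plk2.

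**Figure D2:**
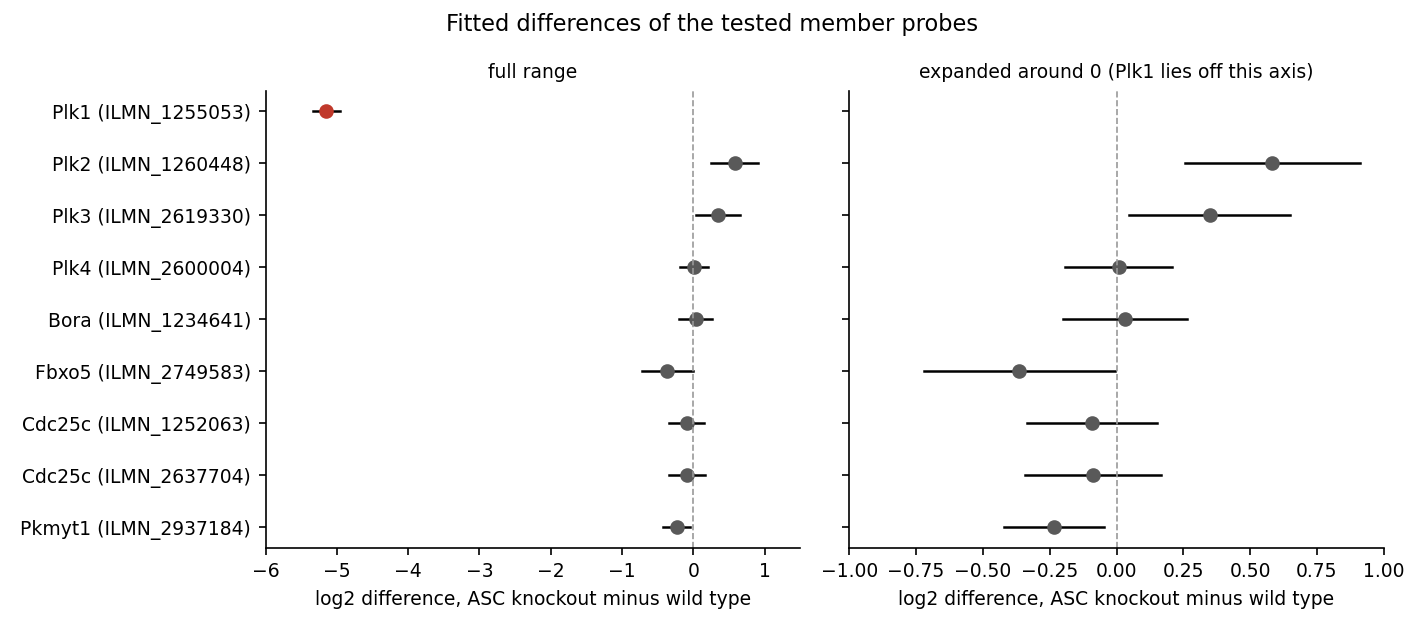
Fitted log2 differences, ASC knockout minus wild type, of the 9 tested member probes with 95% confidence intervals, on the full range at left and expanded around 0 at right. Plk1 stands at -5.15, while the other 8 probes lie between -0.36 and 0.58.

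Plk2, a kinase induced by growth factors and stress and linked to centriole duplication, had the largest difference after Plk1 in the background-corrected fit; without that correction Plk3 was ahead of it, at 0.31 against 0.28. Its probe ILMN_1260448 (chromosome 13) had signals of 207.5, 192.3, 218.8 and 261.3 in ASC knockout samples, against 184.3, 195.5, 181.9 and 184.7 in wild type samples. Knockout replicate 2 lay below the highest wild type sample, so the signals overlapped, and knockout replicate 4 was the highest. The mean signal was 220.0 ± 29.6 in ASC knockout and 186.6 ± 6.06 in wild type samples (SD, n = 4 each). On the normalized log2 scale the groups did not overlap, at 6.61 to 7.31 in ASC knockout and 6.15 to 6.40 in wild type samples, a separation shown by 8.43% of all tested genes. The log2 difference was 0.58 ± 0.147, or 1.5-fold with a 95% confidence interval of 1.19 to 1.88 (limma, adjusted p = 0.117). Without background correction and in the deposited value table it was 0.28. The size varied with the samples used, from 0.43 to 0.67 when each was left out in turn, with adjusted p-values of 0.114 to 0.254.

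Plk3, the other stress-induced family member, had a similar direction but overlapping groups. Its probe ILMN_2619330 (chromosome 4) had signals of 1061.6, 848.7, 1021.5 and 1179.2 in ASC knockout samples, against 838.5, 804.6, 970 and 987.5 in wild type samples. Knockout replicate 2 lay among the wild type samples. The mean signal was 1028 ± 137 in ASC knockout and 900.2 ± 92.1 in wild type samples (SD, n = 4 each). The log2 difference was 0.35 ± 0.136 with a 95% confidence interval of 0.05 to 0.65 (limma, adjusted p = 0.310), so it was not called.

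Plk4, the kinase that starts centriole duplication, had near-equal levels. Its probe ILMN_2600004 (chromosome 3) had signals of 329.3, 300.9, 310.3 and 337.5 in ASC knockout samples, against 368.8, 365.1, 315.5 and 307 in wild type samples. The groups overlapped almost fully. The log2 difference of 0.01 ± 0.0899 turned to -0.08 under median scaling, and its 95% confidence interval ran from -0.19 to 0.21 (limma, adjusted p = 0.979).

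Bora, the cofactor with which Aurora A activates Plk1, showed the same picture. Its probe ILMN_1234641 (chromosome 14) had signals of 395.2, 303.5, 375 and 394.1 in ASC knockout samples, against 385.9, 401.5, 371.8 and 368.4 in wild type samples. Knockout replicate 2 was the lowest of the 8, and the other 7 lay close together. The log2 difference was 0.03 ± 0.104, with a 95% confidence interval of -0.20 to 0.26 (limma, adjusted p = 0.930), and it was -0.06 under median scaling.

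Fbxo5, or Emi1, inhibits the anaphase-promoting complex until Plk1 marks it for degradation in early mitosis. Its probe ILMN_2749583 (chromosome 10) was near the detection limit, with 2 of 4 ASC knockout and 3 of 4 wild type samples detected. Signals were 138.2, 136, 127.4 and 129.3 in ASC knockout samples, against 140.5, 151.3, 135.7 and 152.5 in wild type samples. The groups overlapped by a small margin. The log2 difference was -0.36 ± 0.160, with a 95% confidence interval of -0.72 to -0.01 (limma, adjusted p = 0.371), and without background correction the difference was -0.10.

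Cdc25c, a phosphatase that removes the inhibitory marks from Cdk1 and is activated by Plk1, had 3 probes. ILMN_1252063 had signals of 328, 256.9, 269.5 and 275.2 in ASC knockout samples, against 320.6, 306.1, 315.5 and 291.1 in wild type samples. Knockout replicate 1 was the highest of all 8, and the other 3 knockout samples lay below every wild type sample. Its log2 difference was -0.09 ± 0.109 (limma, adjusted p = 0.780). ILMN_2637704 gave 240.9 to 273.8 in ASC knockout and 258.1 to 312.7 in wild type samples, with a log2 difference of -0.09 ± 0.115 (limma, adjusted p = 0.804). The 95% confidence intervals of these probes ran from -0.33 to 0.15 for ILMN_1252063 and from -0.34 to 0.17 for ILMN_2637704. The third probe, ILMN_2733046, was detected on 0 of 8 arrays and was not tested.

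Wee1 and Pkmyt1 are the kinases that place the inhibitory phosphates on Cdk1. The Wee1 probe ILMN_1228358 (chromosome 7) was detected in 1 ASC knockout sample, replicate 4, and in 0 wild type samples, so it was not tested. Its signals were 129.5, 123.3, 131.8 and 138.3 in ASC knockout samples, against 126, 133.7, 127 and 126 in wild type samples, which is at the level of undetected probes. The Pkmyt1 probe ILMN_2937184 (chromosome 17) had signals of 207.4, 197.8, 200 and 197.2 in ASC knockout samples, against 246.2, 214.8, 218.6 and 229.7 in wild type samples. All 4 knockout signals were below all 4 wild type signals, but the normalized log2 levels overlapped narrowly, at 6.54 to 6.70 in ASC knockout and 6.69 to 6.95 in wild type samples. The mean signal of a whole array ran from 498.7 to 520.8 in ASC knockout and from 518.5 to 581.6 in wild type samples. The log2 difference of Pkmyt1 was -0.23 ± 0.0845, with a 95% confidence interval of -0.42 to -0.05 (limma, adjusted p = 0.267), and it was -0.12 without background correction.

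None of the 8 other tested probes had an interval reaching below -0.72, the limit of Fbxo5, against -5.15 for Plk1 itself. Most of these probes could not have shown a fall as large, because their wild type levels lay too near background. The undetected Cdc25c probe ILMN_2733046 had a mean log2 level of 4.41 in wild type samples. The wild type means were 5.21 for Fbxo5, 6.27 for Plk2, 6.85 for Pkmyt1, 7.79 for Plk4 and 8.04 for Bora. They were 9.56 for Plk3 and 11.56 for Plk1. Fbxo5, the tested probe nearest background, had little room to fall, so its interval does not bound how far it could have followed Plk1. Plk2 and Pkmyt1 had limited room. Plk3, Plk4, Bora and the tested Cdc25c probes stood well above the undetected probe, and their intervals do bound a fall. The lower limits were 0.05 for Plk3, -0.19 for Plk4, -0.20 for Bora, and -0.33 and -0.34 for Cdc25c. In samples of whole cell populations, fewer cells of a type and less RNA per cell cannot be told apart.

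Genes around Plk1 in the cell cycle were read from the same fit, with the brightest tested probe per gene. Of 9 genes that activate Plk1 or its transcription, 7 were tested and 0 were called, with a median log2 difference of -0.11. All 7 lay below 0, as did 49.9% of all tested genes. Cdk1, the mitotic kinase that primes Plk1 partners, had the largest difference in that list. Its signals were 1526.3, 1363.9, 1411.5 and 1436.4 in ASC knockout samples, against 2065.5, 2008, 1650 and 1816.2 in wild type samples, with no overlap. The log2 levels of the groups stood apart as well, as in 8.43% of all tested genes. Its log2 difference was -0.28 ± 0.0743 (limma, adjusted p = 0.129). It was called under 3 of the alternatives: without background correction and in the deposited value table (adjusted p = 0.0260 in both), and with the variance following intensity (adjusted p = 0.0384). Tpx2, the spindle factor that activates Aurora A, stood at -0.15 ± 0.0788. The transcription factors Foxm1 and Mybl2 stood at -0.15 ± 0.111 and -0.11 ± 0.124. Of the B-type cyclins, Ccnb2 did not pass the detection filter and Ccnb1 was not analysed here.

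The switches of mitotic entry other than the members showed no call either. Of 7 genes, 6 were tested, 5 lay above 0 and 1 below, and the median was 0.06. Under median scaling that median was -0.02. Cdc25a, a phosphatase that acts on Cdk2 and Cdk1, had the largest difference at -0.27 ± 0.0863 (limma, adjusted p = 0.205). The checkpoint kinase Chek1 stood at 0.11 ± 0.147, its mediator Clspn at 0.10 ± 0.0804 and the phosphatase Cdc25b at 0.06 ± 0.119. The values of Clspn and Cdc25b were below 0 under median scaling.

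Among 24 binding partners and substrates of Plk1, 21 were on the array and 18 were tested, with 1 called lower and 0 higher. Over all tested genes 0.438% were called lower and 0.593% higher. The split was 9 above and 9 below 0, and the median was 0.0016. Under median scaling the median was -0.11. The called gene was Ercc6l, or PICH, a DNA translocase that coats ultrafine anaphase bridges and binds Plk1. Its signals were 142.4, 141.7, 146.7 and 142.7 in ASC knockout samples, against 166.1, 159.7, 154.6 and 161.1 in wild type samples. The groups did not overlap, although all 8 signals lay little above the detection floor. On the log2 scale 8.43% of all tested genes showed such a separation. Its log2 difference was -0.43 ± 0.0772 (limma, adjusted p = 0.0387). The call was lost in each of the 8 fits that left out a sample (adjusted p = 0.0612 to 0.115), and without background correction (difference -0.13, adjusted p = 0.248). Other partners did not pass the test. The spindle checkpoint kinase Ttk stood at -0.32 ± 0.274, the centrosomal protein Ninl at 0.27 ± 0.157 and sororin, encoded by Cdca5, at -0.19 ± 0.0786.

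The list of mitotic ubiquitin ligases also held the conjugating enzymes Ube2c and Ube2s, securin (Pttg1) and separase (Espl1). Of its 20 genes, 17 were tested and 0 called, with 5 above and 12 below 0 and a median of -0.08. Ube2c, the ubiquitin-conjugating enzyme of the anaphase-promoting complex, had the largest difference at -0.35 ± 0.0928 (limma, adjusted p = 0.131). Its mean signal was 258.6 in ASC knockout and 317.1 in wild type samples. The groups did not overlap, as in 8.43% of all tested genes on the log2 scale. Ube2s, which extends the chains, stood at -0.27 ± 0.188, the SCF subunit Skp1 at -0.24 ± 0.0828 and separase, encoded by Espl1, at -0.16 ± 0.0977.

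Around Plk4, the centriole duplication genes had 7 of 14 members tested and 0 called, with 3 above and 4 below 0 and a median of -0.008. Cenpj, needed for centriole elongation, stood at -0.32 ± 0.204. Sass6, the cartwheel protein recruited downstream of Plk4, stood at -0.27 ± 0.102. Tubg1, the gamma-tubulin of the pericentriolar material, stood at -0.26 ± 0.0823 and the centriole cap protein Ccp110 at 0.16 ± 0.0946. Of the general markers of cycling cells, 13 of 14 were tested and 0 called, with 2 above and 11 below 0 and a median of -0.05. Median scaling moved the median of all tested genes to -0.079, and under it the list medians were -0.22 for the activators, -0.15 for the ligases, -0.09 for the centriole genes and -0.15 for the cycling markers. Tk1 stood at -0.16 ± 0.104, Mcm7 at -0.13 ± 0.111, Mcm4 at 0.12 ± 0.0786 (-0.03 under median scaling) and Mcm6 at -0.11 ± 0.116.

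**Figure D3:**
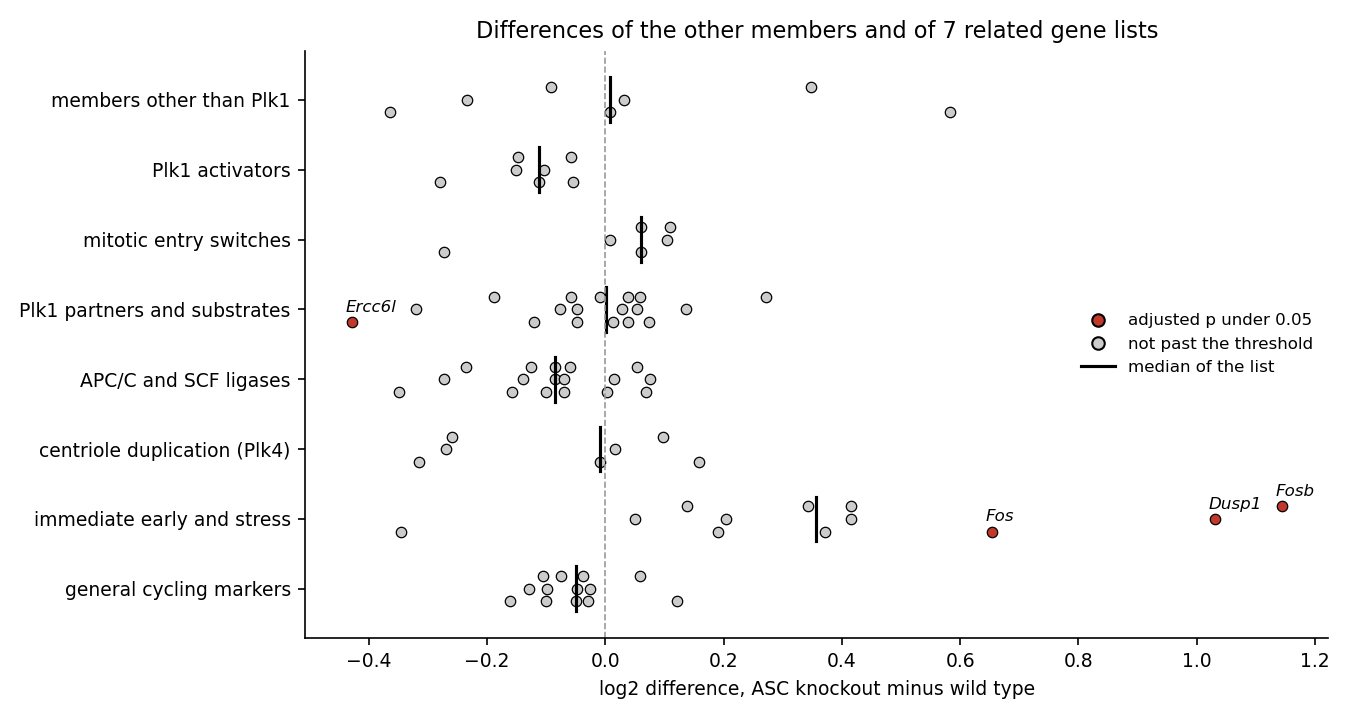
Fitted log2 differences, ASC knockout minus wild type, of the other 7 tested members and of 7 related gene lists, 1 point per gene at its brightest tested probe, with the median of each list as a bar. Ercc6l is called among the partners and substrates, and Fos, Fosb and Dusp1 among the immediate early and stress genes. The 7 tested activators all lie below 0, down to Cdk1 at -0.28, and the other cell cycle lists have points on both sides of 0.

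Plk2 and Plk3 were set beside the immediate early and stress genes, the group in which both are usually placed. Of 14 such genes, 12 were tested, 3 were called higher and 0 lower, with 11 above and 1 below 0 and a median of 0.36. Over all tested genes 0.593% were called higher and 0.438% lower, and 49.9% lay below 0. Fosb, a subunit of the AP-1 transcription factor, was higher by 1.14 ± 0.203 (limma, adjusted p = 0.0357). Dusp1, a phosphatase that inactivates MAP kinases, was higher by 1.03 ± 0.151 (limma, adjusted p = 0.0147), and Fos by 0.65 ± 0.122 (limma, adjusted p = 0.0435). Jun stood at 0.42 ± 0.206. Other immediate early genes did not share the rise: Egr1 stood at 0.05 ± 0.144 and Ier2, the 1 gene below 0, at -0.34 ± 0.115. Nr4a1 and Atf3 were not tested. Dusp1 signals were 4960.4, 6039, 7518.9 and 7712.3 in ASC knockout samples, against 3268.2, 3785.8, 3612.6 and 3739.7 in wild type samples, with no overlap and the highest values in knockout replicates 3 and 4. Its log2 levels did not overlap either, as in 8.43% of all tested genes. Over the 8 fits that left out a sample, the Dusp1 call was lost only without wild type replicate 2 (adjusted p = 0.0513). Fosb kept its call only without knockout replicate 1 and Fos only without knockout replicate 2, and in the other fits their adjusted p-values reached 0.108 for Fosb and 0.110 for Fos. Both calls were also lost without the detection filter (adjusted p = 0.0712 for Fosb and 0.0730 for Fos), and with the replicate number as a block (adjusted p = 0.0738 for Fosb and 0.129 for Fos). That of Fos was lost under median scaling too (adjusted p = 0.0995). The promoter window of Dusp1 also held a TGACGTCA, which began 143 bases before the start, and a CHR core on the opposite strand that began 113 bases before it. Those of Fos and Fosb held none of the 3 motifs in their exact letters, and variant forms were not searched.

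Sample by sample, the mean log2 level of these 12 genes was 8.96, 9.02, 9.24 and 9.31 in ASC knockout samples, against 8.65, 8.68, 8.89 and 8.79 in wild type samples. Plk2 had normalized log2 levels of 6.64, 6.61, 6.86 and 7.31 in ASC knockout samples, against 6.15, 6.40, 6.32 and 6.23 in wild type samples. Plk3 had 9.93, 9.69, 9.88 and 10.13 in ASC knockout samples, against 9.35, 9.34, 9.81 and 9.73 in wild type samples. Knockout replicate 4 was the highest of the 8 for the list, for Plk2 and for Plk3. In the wild type group replicates 3 and 4 were higher than replicates 1 and 2 for the list and for Plk3, but not for Plk2. With 4 samples per group and separated groups, no correlation is given.

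**Figure D4:**
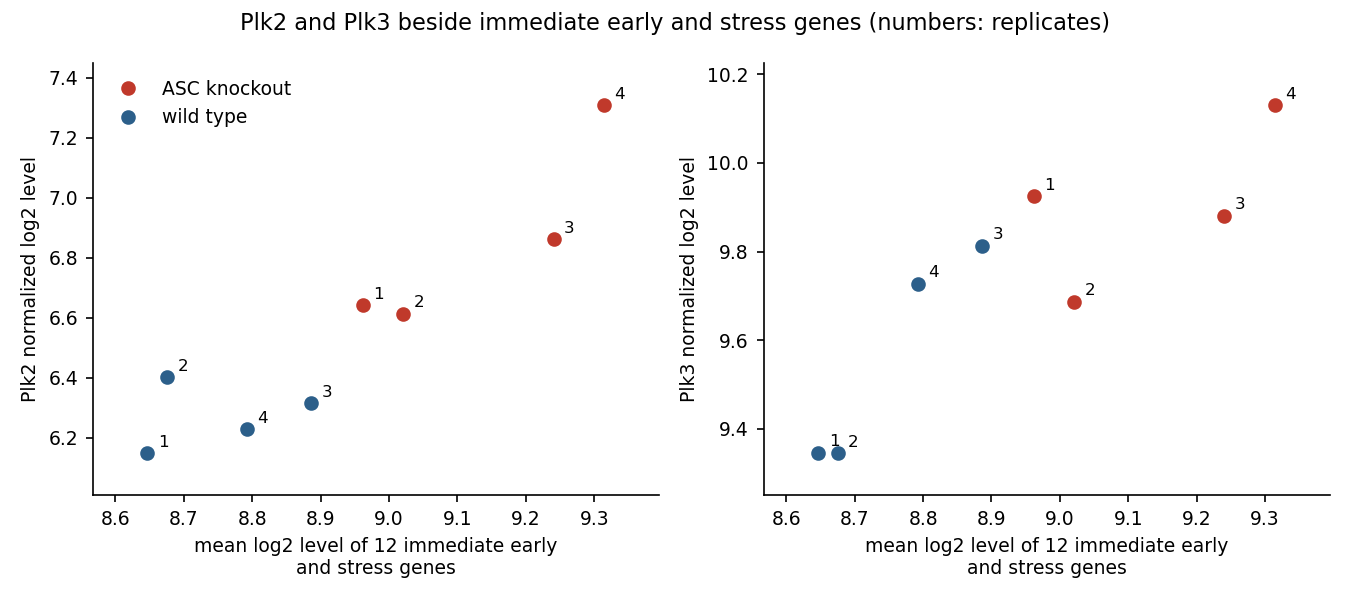
Normalized log2 level of Plk2 (left) and Plk3 (right) against the mean log2 level of 12 immediate early and stress genes, 1 point per sample, numbered by replicate. ASC knockout replicate 4 is at the top right of both panels, and the wild type samples lie lowest for Plk2.

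Markers of other cell types were compared in the same samples. The 3 of 6 detected myeloid markers, Lyz2, S100a8 and S100a9, had a mean log2 level of 7.45 to 8.73 in ASC knockout and 7.40 to 7.86 in wild type samples (exact permutation p = 0.114, two-sided), and Cd14 and Itgam were detected in 0 knockout samples. These markers did not move together: S100a8 stood at 0.83 and S100a9 at 1.08, while Lyz2 stood at -0.21, and none was called (limma, adjusted p = 0.301 for S100a8, 0.187 for S100a9 and 0.695 for Lyz2). Of 4 erythroid markers only Hba-a1 was tested, at 6.55 to 7.89 in ASC knockout and 5.80 to 6.91 in wild type samples (exact permutation p = 0.0571). Of 5 B cell markers only Cd79b was tested, at 6.55 to 7.63 in ASC knockout and 6.24 to 6.99 in wild type samples (exact permutation p = 0.257). The 3 of 4 tested NK markers gave 6.61 to 7.03 in ASC knockout and 6.30 to 7.03 in wild type samples (exact permutation p = 0.714). Of 3 CD4 T cell markers only Foxp3, the regulatory T cell factor, was tested, at 6.73 to 7.06 in ASC knockout and 5.67 to 6.26 in wild type samples. Foxp3 was called higher in ASC knockout samples at 1.09 on the log2 scale (limma, adjusted p = 0.00576), with mean signals of 223.9 in ASC knockout and 166.3 in wild type samples, and at 0.48 without background correction. The exact permutation p of 0.0286 for that list was the smallest that 4 against 4 samples allow, and 0.171 after adjustment over the 6 marker lists. The Cd4 probe was detected in 1 ASC knockout and 0 wild type samples, and Cd40lg in 0 ASC knockout samples. The part of these markers in the differences of Plk2, Plk3 and the immediate early genes was not tested.

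Plk1 and Pycard both lie on chromosome 7, with 64 steps between them in the order of tested genes, so the 5 nearest tested genes on each side of Plk1 were read as well. Of these 10 neighbours, 1 was called, against 1.03% of all tested genes. Kdm8, a protein hydroxylase of the JmjC family, had signals of 380.2, 370.1, 360.4 and 335.5 in ASC knockout samples, against 509.3, 490.2, 478.9 and 499.3 in wild type samples. The groups did not overlap, as in 8.43% of all tested genes on the log2 scale. Its log2 difference was -0.48 ± 0.0884 (limma, adjusted p = 0.0404), and over the 8 fits that left out a sample it was called only without knockout replicate 2 (highest adjusted p = 0.108). Without the detection filter its adjusted p was 0.0562. The genes next to Plk1 were not called. Dctn5, a dynactin subunit, stood at 0.04 ± 0.0877 (-0.07 under median scaling) and Prkcb, a protein kinase C, at 0.17 ± 0.0823 (limma, adjusted p = 0.432). Ndufab1, a mitochondrial acyl carrier protein, stood at -0.45 ± 0.209 and Ubfd1 at -0.40 ± 0.131. Ears2, the mitochondrial glutamyl-tRNA synthetase, was at -0.13 ± 0.121, Tnrc6a at -0.04 ± 0.103 and Arhgap17 at 0.11 ± 0.0881. Mettl9 was at 0.02 ± 0.119 and Lcmt1 at -0.01 ± 0.0923, with a sign for Mettl9 that turned under median scaling.

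**Figure D5:**
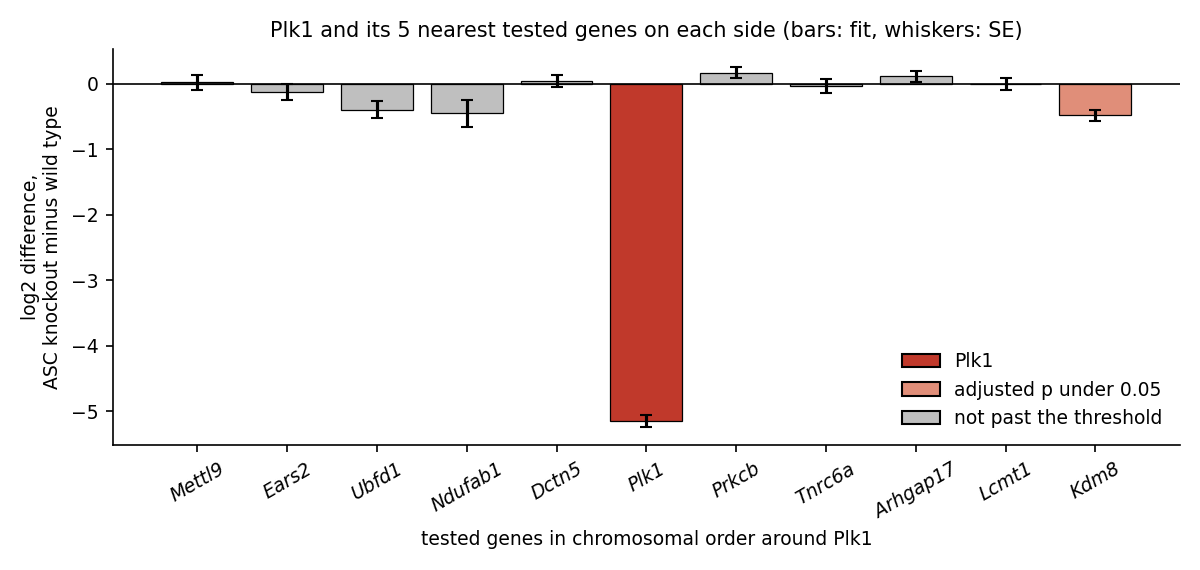
Fitted log2 differences, ASC knockout minus wild type, of Plk1 and its 5 nearest tested genes on each side, in chromosomal order without distances, with SE as whiskers. The Plk1 bar reaches -5.15, and the neighbouring bars lie between -0.48 and 0.17.

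The genes most like Plk1 over the 8 samples were found by the root mean square difference of log2 profiles, each centred on its own mean. The Plk1 profile has a root mean square of 2.57 of its own, which is about the difference of a gene that does not vary, and the median over all tested genes was 2.58. Pycard was nearest at 0.538. Rgs10, a regulator of G-protein signalling, followed at 1.36, then Apobr at 1.69, Paip1 at 1.70 and Itgad at 1.74. Pycard and Itgad were not detected on the knockout arrays, so their distances rest on values at background there, and the likeness to Plk1 is a description. The log2 differences were -2.56 for Rgs10, -1.77 for Apobr and -1.76 for Paip1, while Itgad was undetected in all 4 ASC knockout samples. Its mean signal was 123.7 in ASC knockout and 183.3 in wild type samples, at least 1.37-fold lower in the knockout on the deposited signals and 2.51-fold after background correction. Without background correction the differences were -1.81 for Rgs10, -1.03 for Apobr and -0.65 for Paip1, whose knockout signals of 133.2 to 141.2 lay little above the detection floor. Pycard, Rgs10, Apobr and Itgad lie on chromosome 7 with Plk1, and Paip1 lies on chromosome 13. The share of all tested genes on chromosome 7 is not given here, so no excess is read from these positions. None of the other polo-like kinases or partners was among these 5. Their small differences fixed this in advance, because the distance mainly follows the size of the fall in the knockout. It adds nothing on whether they moved with Plk1.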

How the data were processed

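Per the labels, RNA of CD8+ T cells was amplified into biotinylated cRNA and hybridised. The submitters' processing notes name GenomeStudio. The deposited intensities are not normalized, per the file headers. Beside each stands a detection p-value, also deposited and named so per the file headers. A further table by the authors holds log2 values. They equal quantile-normalized log2 signals centred on each probe's median within 0.00059, and the column medians run from -0.00045 to 0.00053. Their scale and centring were found from the values.

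Intensities were corrected with limma's nec (offset 16) and quantile-normalized before taking log2. The tested probes were those detected (p under 0.05) on 4 or more of the 8 arrays, 11270 of 25697 or 43.9%. limma's lmFit and eBayes were used, with Benjamini-Hochberg adjustment over the tested probes at a threshold of 0.05. The number of arrays limits the precision. In the platform annotation 23978 probes had 1 gene symbol, 0 several and 1719 none. Named were all member probes, Pycard, the called genes and 4 largest differences per list, 5 neighbours on each side and the 5 most similar profiles. Egr1 and Ier2 were named in addition, for values outside the rise of their list. Members and lists were chosen with earlier results of these data known. Alternatives changed background correction, normalization, detection filter, value table, variance model, array weights, replicate block and samples used. The code was tested on simulated arrays. Tools were R 4.3.3, limma 3.58.1 and Python 3.11.15. Probe and protein sequences were not used here.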

Additional observations from a re-analysis of the deposited data

Results flagged for a closer look

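Samples far from the others of their group were looked for in 106 groups of 4 log2 values, by the gap of the highest or lowest sample to its nearest neighbour as a share of the group's range and Dixon's critical value at the 95% level. There were 4 such samples, where chance gives about 5.3. For Cdc25c at ILMN_1252063, ASC knockout replicate 1 was at 7.785 while the other 3 lay at 7.391 to 7.429 (share 0.9029). For Tk1 at ILMN_2605890, ASC knockout replicate 3 was at 10.59 while the others lay at 10.82 to 10.86 (share 0.8741). For Mettl9 at ILMN_2782307, ASC knockout replicate 2 was at 9.744 while the others lay at 9.531 to 9.562 (share 0.8535). For Foxp3 at ILMN_2635132, wild type replicate 3 was at 6.26 while the others lay at 5.668 to 5.752 (share 0.858).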

How the results depend on the processing

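Over 52 genes and member probes other than Plk1 and 19 alternative settings, 914 of 982 values kept their direction and their side of the threshold. The number of genes called higher and lower was 46 and 34, and it was 106 and 77 without background correction and in the deposited value table, 89 and 62 with an offset of 50, and 108 and 78 with the variance following intensity. It was 29 and 22 without the detection filter and 26 and 19 with the replicate number as a block. Median scaling gave 30 and 49, so that 38.0% of calls were higher, against 57.5% before, and it moved the median difference of all genes to -0.079. Leaving out 1 sample gave 15 to 37 higher and 14 to 27 lower. The Plk1 difference was -4.03 without background correction and in the deposited table, and -4.68 with an offset of 50. Of the members other than Plk1, 1 (Plk2) was called with the variance following intensity (adjusted p = 0.0444), and 0 in each fit that left out a sample. Cdk1 was the 1 activator called without background correction, in the deposited table and with the variance following intensity. Ercc6l gave 0 called partners and substrates without background correction, with an offset of 50, in the deposited table, with the variance following intensity, with the block, and in each fit that left out a sample. Of the immediate early and stress genes, 1 was called without the detection filter, 1 with the block, and 0 to 2 when a sample was left out. Directions turned under median scaling for Plk4 (-0.0784), Bora (-0.0554), Clspn (-0.0045), Cdc25b (-0.0157), Mcm4 (-0.0274), Mettl9 (-0.0777) and Dctn5 (-0.0700), and under array weights for Plk4 (-0.0125) and Mettl9 (-0.0109). Leaving out 1 sample gave -0.0544 to 0.0515 for Plk4, -0.0147 to 0.123 for Bora, -0.0356 to 0.135 for Cdc25b, -0.0565 to 0.116 for Mettl9, -0.0137 to 0.0782 for Dctn5, -0.128 to 0.0193 for Tnrc6a and -0.0781 to 0.0271 for Lcmt1. Without background correction 25 of the 52 differences were over 1.5 times smaller, among them Ttk (-0.09), Ninl (0.09), Ube2c (-0.22), Ube2s (-0.12), Skp1 (-0.14), Cenpj (-0.12), Sass6 (-0.16), Jun (0.20), Ubfd1 (-0.22) and Ndufab1 (-0.13). Bounds for Pycard and Itgad on the deposited signals, and the settings for Foxp3, were chosen after seeing the data. The causes of these changes were not tested. The deviations of samples with the same replicate number had correlations of 0.0139, 0.107, 0.132 and -0.0999 for replicates 1 to 4. These are weak and differ in sign, not every pair was above 0.1, and the labels do not say what the number marks. Under that block the Ercc6l call was lost (adjusted p = 0.106), as were those of Kdm8 (0.103), Fos (0.129) and Fosb (0.0738). Signal over background limits Fbxo5, Wee1, Ercc6l and the undetected Cdc25c probe. It also limits Ttk and Ndufab1, which were detected in 2 and 3 of the 4 ASC knockout samples.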
